A study of Mus musculus with 124 samples.

Results

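Bdnf, Ntf3, Ntrk2 and Ntrk3 encode 2 neurotrophins and their Trk receptors, and each had 1 row by that symbol among the 17108 named genes of the cortex table. The data were 62 cortex RNA-seq libraries from mice aged 11 to 12 weeks, housed on a cycle of 12 h light and 12 h dark with food always present. The 26 control libraries were of undisturbed mice. Of these, 8 were taken at lights-on (zeitgeber time 0, ZT0), 3 at ZT3, and 5 each at ZT6, ZT12 (lights-off) and ZT18. The other 36 libraries were of mice deprived of sleep by gentle handling over ZT0 to ZT6, in 12 groups of 3, named by the time elapsed since ZT0 of the day before deprivation. T27 mice were killed 3 h into the deprivation and T30 mice at its end, and the remaining 10 groups, from T36 to T78 in steps of 6 h and then T192 and T198, after recovery. Each deprived group was set against the controls of the same ZT. Strain and sex are not given in the sources used here, and the dissection of the cortex is not described there.

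Neurotrophins are secreted growth factors that neurons and their targets use to regulate survival, branching and synaptic strength. BDNF binds TrkB, the product of Ntrk2, and neurotrophin-3, the product of Ntf3, binds TrkC, the product of Ntrk3. Both ligands and their uncut precursors also bind the low-affinity receptor encoded by Ngfr. Bdnf is transcribed from several alternative promoters, some of them driven by neuronal activity and calcium, and its mRNA in cortex is known to follow waking. Ntrk2 and Ntrk3 also give rise to truncated receptors without a kinase domain, and truncated TrkB is abundant in astrocytes. A gene-level value adds these forms together.

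In GENCODE for GRCm38, Bdnf (ENSMUSG00000048482.14) is at chr2:109674700-109727007 on the plus strand, with 11 transcripts from 9 start positions. Ntf3 (ENSMUSG00000049107.13) is at chr6:126101412-126166910 on the minus strand, Ntrk2 (ENSMUSG00000055254.15) at chr13:58806569-59133970 on the plus strand, and Ntrk3 (ENSMUSG00000059146.12) at chr7:78175959-78738012 on the minus strand. RefSeq promoters (GRCm38.p6, 300 bases each) were matched for Bdnf (7 start sites), Ntf3 (2) and Ntrk2 (1), and Ntrk3 was not matched. They were searched on both strands for the cAMP response element (TGACGTCA) and its half-site (TGACG, which the full element contains). The search also covered an E-box (CACGTG) and a loosened AP-1 pattern (TGANTCA) with any base in the middle. The usual AP-1 site has C or G there, and the AP-1 match printed below has A. The 3 promoters of the ligands that held a match are shown because the 2 ligands moved in opposite directions. Only bases before the start site and outside GENCODE exons of the gene are printed, 5′ to 3′ on the gene's strand, with the match in capitals.
Bdnf, start 2, chr2:109676782-109677031, AP-1 match 152 bases before the start: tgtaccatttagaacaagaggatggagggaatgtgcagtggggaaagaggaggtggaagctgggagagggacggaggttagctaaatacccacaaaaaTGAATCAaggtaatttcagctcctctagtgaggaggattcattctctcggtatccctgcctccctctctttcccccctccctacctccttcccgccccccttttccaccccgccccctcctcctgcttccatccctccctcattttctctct
Bdnf, start 3, chr2:109692186-109692435, half-site match 35 bases before the start: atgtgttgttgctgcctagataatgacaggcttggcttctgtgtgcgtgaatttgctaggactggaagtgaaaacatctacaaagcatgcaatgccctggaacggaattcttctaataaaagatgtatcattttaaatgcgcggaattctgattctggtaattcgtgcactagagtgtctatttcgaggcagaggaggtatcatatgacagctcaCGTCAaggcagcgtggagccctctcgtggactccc
Ntf3, start 1, chr6:126166911-126166994, E-box match 231 bases before the start: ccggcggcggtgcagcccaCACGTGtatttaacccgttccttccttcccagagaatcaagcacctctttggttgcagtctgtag
Among 32851 RefSeq promoters of the same length, 20.8% held the half-site, 7.81% the AP-1 letters, 7.15% the E-box and 1.79% the full element. The half-site was in 1 of the 7 Bdnf promoters, and no full element was found in these windows. The gene-level values below do not show which start was used.

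All levels are the deposited log2 CPM, the reads of a gene scaled to the library total, and a difference is a log2 fold change with its standard error from limma. Adjusted p-values are Benjamini-Hochberg over all 17108 named genes, and a gene was called at an adjusted p under 0.05. The read depth of the libraries is unknown. Per kilobase of exon at ZT0, Ntrk2 stood highest at 40.5 CPM, followed by Ntrk3 at 9.03, Bdnf at 6.55 and Ntf3 at 0.343. At T30 Bdnf, at 10.7 CPM per kilobase, was listed above Ntrk3 at 9.94. That order depends on the divisor, which joins the exons of all transcripts (30.17 kb for Ntrk3, 6.217 kb for Bdnf). In plain CPM at T30, Ntrk3 averaged 300 and Bdnf 66.5. Ntf3 was near the floor of the table: its mean over all libraries was -1.03 log2 CPM, and only 7.10% of named genes were lower.

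The 10 excitatory neuron markers were all measured, with a summed level of 5708 to 6117 CPM at ZT6 and 5708 to 6082 at T30, where 1 was called higher (Neurod6, 0.44) and 2 lower (Rorb, -0.28; Tbr1, -0.16). Markers of hippocampus, where Bdnf is also abundant, summed to 34.4 to 41.6 CPM at ZT6 and 34.3 to 36.7 at T30, and 0 of 8 were called. Of 10 astrocyte markers 1 was higher and 1 lower at T30 (summed level 5891 to 6183 CPM, against 5806 to 6248 at ZT6). Of 6 microglial markers 3 were lower and 1 higher at T30, and their sum of 286 to 300 CPM lay below the 313 to 321 at ZT6. Of 8 oligodendrocyte markers 2 were lower at T30 (Opalin, -0.99; Mog, -0.35), and at T36 all 8 differences were below 0 (median -0.24) with 0 called by limma. At T27, 3 of the 4 measured choroid plexus markers were lower: they summed to 9.53 to 125 CPM in ZT3 controls and to 5.54 to 7.01 in T27 libraries. Sums of 7 mural cell and fibroblast markers (210 to 219 CPM, against 225 to 250 at ZT3) were also lower at T27, with 2 called lower. So were those of 5 endothelial markers (211 to 230, against 233 to 258), with 1 called lower. Of the 10 excitatory neuron markers, 3 were called higher and 2 lower at T27. Of all genes, 32.4% were called at T30, 16.4% at T27 and 12.5% at T36, in either direction. At T30 the share was 30% for excitatory neuron markers, near that of all genes, and 66.7% for microglial markers. The part of these marker differences in the results below was not tested. In bulk tissue, fewer cells of a type and less RNA per cell cannot be told apart. One ZT6 control, T6N3, stood toward the deprived libraries: Homer1 was 8.60 log2 CPM there and 7.54 to 7.75 in the other 4, and Vgf was 7.76 against 7.13 to 7.32. Its Arc, at 4.67, was the lowest of the 5. Results at T30 are therefore also given without it. T6N3 also had the highest Bdnf (5.19) and Ntrk2 (9.73) and the lowest Ntf3 (-1.22) of the ZT6 controls. Leaving it out had to enlarge those differences, and is no independent check of them.

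Bdnf was more than 2-fold higher during sleep deprivation and still so 6 h into recovery. It was 6.02, 6.11 and 6.12 log2 CPM at T27, against 4.80, 4.97 and 5.10 in the ZT3 controls. At T30 it was 5.99, 6.04 and 6.13, against 4.37, 4.62, 4.64, 5.03 and 5.19 at ZT6. At T36, after 6 h of recovery, it was 5.58, 5.68 and 5.92, against 4.35 to 4.63 (median 4.57) at ZT12. None of these groups overlapped its controls, and 8 of these 9 libraries exceeded each of the 26 controls. How many genes have libraries beyond all controls in this way was not counted. Groups did not overlap, in either direction, for 34.4% of all genes at T27, 33.3% at T30 and 20.3% at T36.

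The Bdnf difference was 1.12 ± 0.13 at T27 (2.18-fold, limma adjusted p = 2.02e-08), 1.28 ± 0.12 at T30 (2.43-fold, adjusted p = 7.93e-12) and 1.19 ± 0.12 at T36 (2.29-fold, adjusted p = 1.46e-10). The same rule called 16.4% of all genes at T27, 32.4% at T30 and 12.5% at T36, in either direction. Without T6N3 the T30 difference was 1.41 ± 0.11 (adjusted p = 1.40e-13). Among rises, Bdnf ranked 61 at T30 and 23 at T36 by fold. At T42 it was 5.41, 5.51 and 5.60, above the ZT18 range of 4.99 to 5.37 (8.52% of genes did not overlap there), but the difference of 0.34 ± 0.12 was not called (adjusted p = 0.165; 1.03% of genes called). The drop of the effect from T36 to T42, -0.85 ± 0.16, was itself called (adjusted p = 0.00109; 3.46% of genes). It is a drop of the difference from controls, and most of it came from the controls. Their mean rose from 4.53 log2 CPM at ZT12 to 5.16 at ZT18. Levels in deprived mice moved less, and ran from 5.58 to 5.92 at T36 and from 5.41 to 5.60 at T42, with overlap. At T48 the difference was -0.06 ± 0.11, with 1.49% of genes called.

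**Figure D1:**
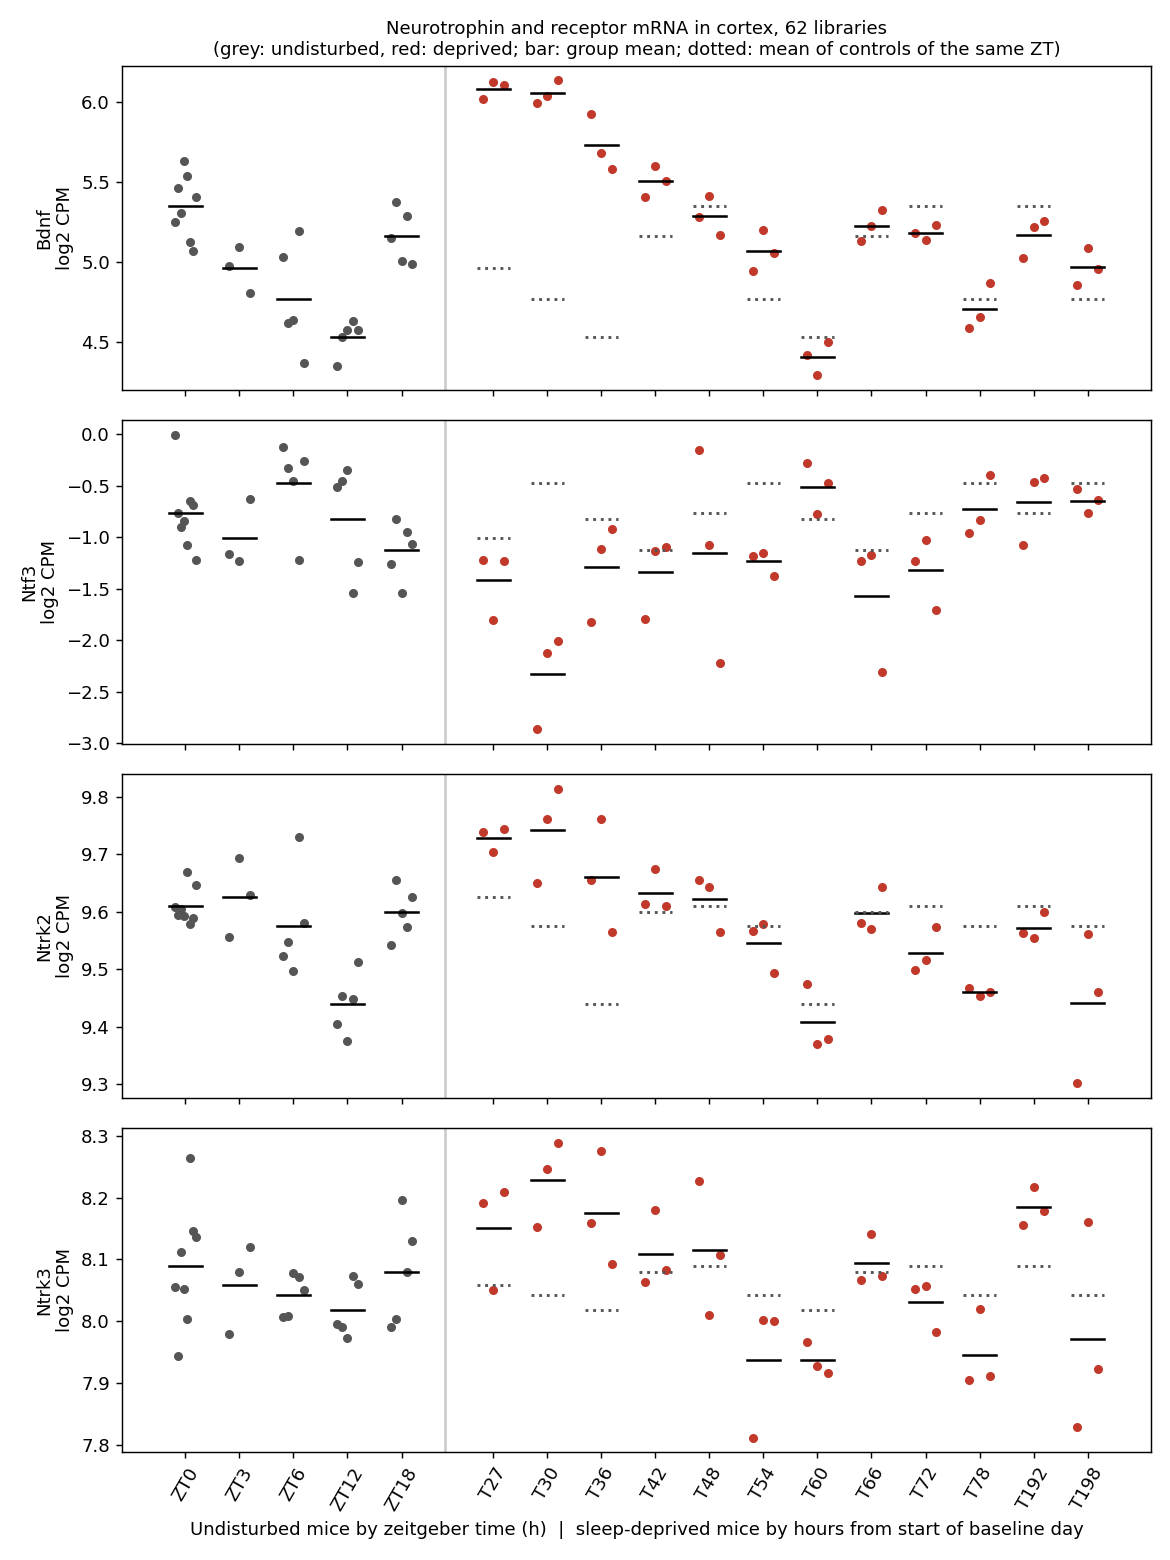
Level of each gene in log2 CPM (y axes, each on its own scale) in every library, by group (x axis); grey points are undisturbed mice, red points deprived mice, bars are group means and dotted lines repeat the mean of the controls of the same ZT. Bdnf at T27 and T30 lies between 5.99 and 6.13, above every control. Ntf3 at T30 lies between -2.86 and -2.00, below every control, as do single libraries at other times.

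Ntf3 went the other way, and was called at T30 alone of the 12 times. It was -2.86, -2.12 and -2.00 log2 CPM at T30, against -1.22, -0.45, -0.33, -0.26 and -0.12 at ZT6, and the lowest of these controls was T6N3. The groups did not overlap, as was the case for 33.3% of all genes, and all 3 T30 libraries lay below each of the 26 controls. This was not limited to T30: 9 of the 36 deprived libraries lay below each control, among them T48S4 (-2.22) and T66S5 (-2.31). How many genes show such values was not counted. Ntf3 fell by 1.85 ± 0.32 (3.61-fold lower, limma adjusted p = 1.32e-05), the fifth largest fall of all named genes at T30 by fold. By p-value Ntf3 ranked 728 among all named genes, in either direction. Without T6N3 it fell by 2.07 ± 0.33 (adjusted p = 2.70e-06). On the scale log2(CPM + 1), which shrinks differences of weakly expressed genes, the fall remained called at 0.52 (adjusted p = 0.00386).

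At T27 the Ntf3 values were -1.80, -1.23 and -1.22, against -1.23, -1.16 and -0.63 at ZT3, and the ranges overlapped (difference -0.41 ± 0.35, adjusted p = 0.489). At T36 they were -1.83, -1.11 and -0.92, within the ZT12 range of -1.54 to -0.34 except for the lowest (difference -0.47 ± 0.32, adjusted p = 0.381). The T36 libraries are all of batch 1, and so are the ZT12 controls at -0.51, -0.45 and -0.34, whereas those at -1.54 and -1.24 are of batch 2. Against the batch 1 controls the difference was -0.85 and not called (adjusted p = 0.113 among libraries of that batch, and 0.0760 in a fit of the 2 groups alone). The effect at T36 differed from that at T30 by 1.39 ± 0.45 (adjusted p = 0.0320; 12.2% of genes called). That call was lost when any of 8 of the 16 libraries was left out (T6N4, J76N1, J76N2, T12N5, T12N6, T30S1, T36S2 or T36S4; adjusted p up to 0.135), on the scale log2(CPM + 1) (adjusted p = 0.0889) and with the animal number as a replicate block (adjusted p = 0.0844). The T30 effect was not shown to differ from that at T27 (-1.45 ± 0.48, adjusted p = 0.413), a contrast in which 1 gene was called (0.00585%). Bdnf, in contrast, was called at all 3 times.

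Set against undisturbed mice at ZT18, when mice are in their active phase, Bdnf was also higher at T27 by 0.92 ± 0.12 (limma adjusted p = 3.58e-07; 7.20% of genes called) and at T30 by 0.89 ± 0.12 (adjusted p = 6.91e-07; 6.81%). Ntf3 at T30 was lower than at ZT18 by a log2 fold change of -1.20 ± 0.32 (adjusted p = 0.0148), and the adjusted p was 0.152 without T30 library T30S1 and 0.105 on the scale log2(CPM + 1). This comparison mixes time of day with deprivation.

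**Figure D2:**
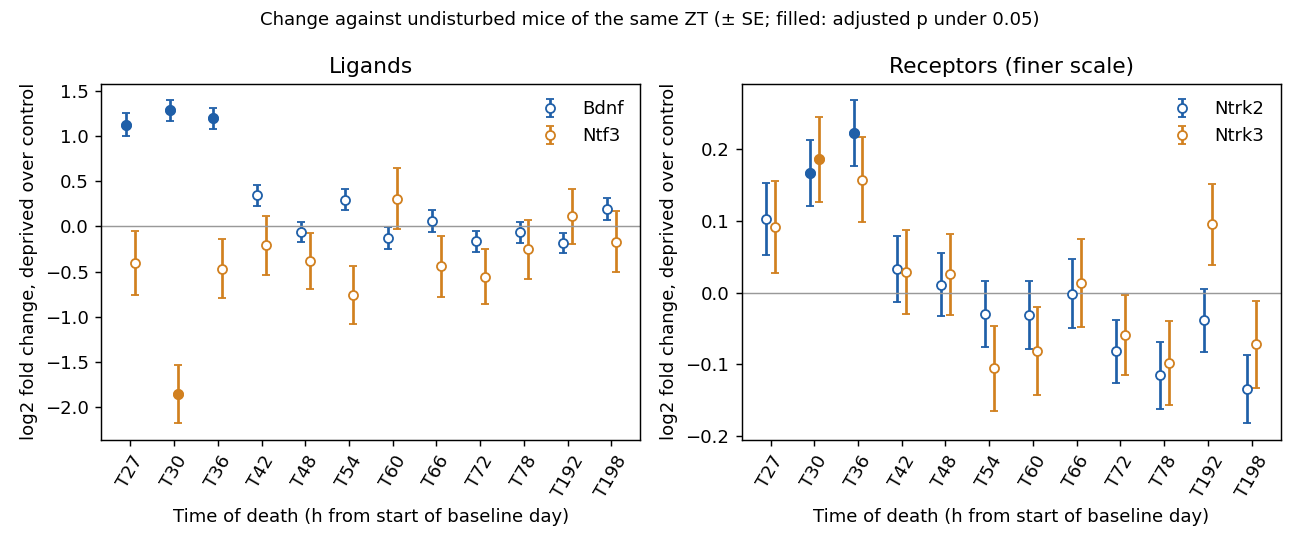
log2 fold change (y axes) of each deprived group against controls of the same ZT, by time of death (x axes), with bars of 1 standard error; filled points have an adjusted p under 0.05, and the receptor panel has a finer scale. Bdnf is filled at T27, T30 and T36, Ntf3 at T30, Ntrk2 at T30 and T36 and Ntrk3 at T30.

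The receptor differences were smaller, at most 0.22 on the log2 scale at any time. At T30, where 32.4% of all genes were called, Ntrk2 ranked 7614 and Ntrk3 6924 by size in either direction. By p-value they ranked 2909 and 3793. At T36, where 12.5% were called, Ntrk2 ranked 3789 by size and 374 by p-value. Groups did not overlap for 34.4% of all genes at T27, 33.3% at T30 and 20.3% at T36. Ntrk2 was 9.65, 9.76 and 9.81 log2 CPM at T30, against 9.50, 9.52, 9.55, 9.58 and 9.73 at ZT6, and the highest of these controls was again T6N3, so that the ranges overlapped. The difference was 0.17 ± 0.05 (limma adjusted p = 0.00407), and it was 0.21 ± 0.05 without T6N3 (adjusted p = 0.000213). Without the T30 library T30S4 it was 0.13 (adjusted p = 0.0605), and in a fit of the 2 groups alone 0.14 (adjusted p = 0.115). At T36 Ntrk2 was 9.56, 9.66 and 9.76, above the ZT12 range of 9.37 to 9.51. There it rose by 0.22 ± 0.05 (1.17-fold, adjusted p = 0.000575), and this call held without each library in turn. At T27 the values of 9.70, 9.74 and 9.74 lay above the ZT3 range of 9.56 to 9.69, with a difference of 0.10 ± 0.05 that was not called (adjusted p = 0.161).

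Ntrk3 was 8.15, 8.25 and 8.29 log2 CPM at T30, above the ZT6 range of 8.01 to 8.08 (33.3% of genes did not overlap there, and 32.4% were called). The difference of 0.19 ± 0.06 was called (limma adjusted p = 0.0126), but not without T30S4 (0.16, adjusted p = 0.0849) nor within batch 1 alone (0.16, adjusted p = 0.0555). At T36 it was 8.09, 8.16 and 8.28, above the ZT12 range of 7.97 to 8.07, with a difference of 0.16 ± 0.06 (adjusted p = 0.0709). That difference was called without T36S4 (adjusted p = 0.0442) and in a fit of the 2 groups alone (0.19, adjusted p = 0.0264). At T27 it was 0.09 ± 0.06 (adjusted p = 0.370). Against ZT18, Ntrk2 at T30 was 0.14 ± 0.05 higher (adjusted p = 0.0472; 6.81% of genes called). That call was lost without any of 5 of the 8 libraries (T18N2, T18N4, T18N7, T30S3 or T30S4; adjusted p up to 0.300) and with the replicate block (adjusted p = 0.0738). Ntrk3 at T30 was 0.15 ± 0.06 higher than at ZT18 (adjusted p = 0.126).

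The ratio of the ligands and that of the receptors were also taken within each library, where a scaling of the library cancels. Bdnf minus Ntf3 was 8.38 ± 0.41 (SD, n = 3) at T30 and 5.24 ± 0.69 (SD, n = 5) at ZT6, a difference of 3.14 on the log2 scale with no overlap. The two-sided exact permutation p of 0.0179 is the smallest that 3 against 5 libraries can give, and adjusted over the 24 tests of this kind it was 0.214. The difference was 1.53 at T27 (exact p = 0.1, the smallest that 3 against 3 can give) and 1.66 at T36 (exact p = 0.0357). It was 0.55 at T42 (exact p = 0.0179). Ntrk2 minus Ntrk3 was 1.51 ± 0.01 (SD, n = 3) at T30 and 1.53 ± 0.09 (SD, n = 5) at ZT6, a difference of -0.02 (exact permutation p = 0.589). At T36 it was 0.07 above ZT12 (exact p = 0.0357). None of the 24 passed adjustment (lowest adjusted p = 0.214).

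**Figure D3:**
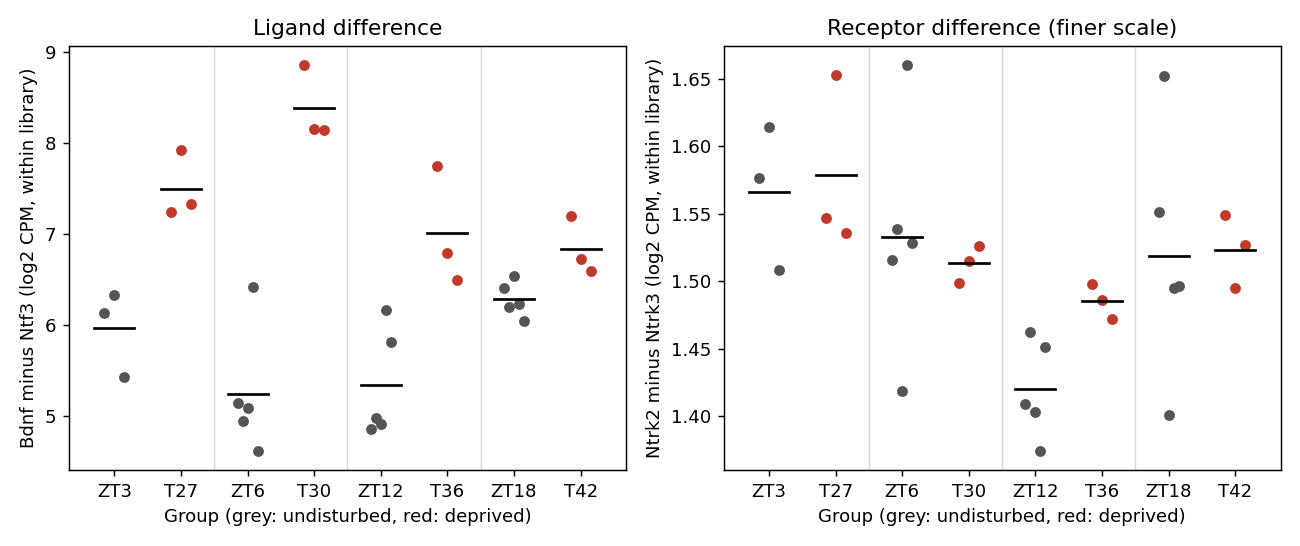
Bdnf minus Ntf3 (left) and Ntrk2 minus Ntrk3 (right, finer scale) within each library in log2 CPM (y axes), for deprived groups (red) beside their controls (grey) with group means as bars. The ligand difference averages 8.38 at T30 and 5.24 at ZT6, and the receptor difference 1.51 and 1.53.

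In undisturbed mice Bdnf varied with time of day. Its mean was 5.35 log2 CPM at ZT0, 5.16 at ZT18, 4.96 at ZT3, 4.77 at ZT6 and 4.53 at ZT12, a range of 0.81 or 1.76-fold (limma F test over 5 times, adjusted p = 1.66e-09; 41.9% of genes called). Neighbours in this order were not called: adjusted p was 0.219 for ZT18 against ZT0, 0.296 for ZT18 against ZT3, 0.474 for ZT6 against ZT3 and 0.189 for ZT12 against ZT6. Those comparisons called 6.94%, 9.84%, 0.129% and 3.83% of genes. Without T6N4, the lowest Bdnf of the ZT6 controls, the last had an adjusted p of 0.0366. Bdnf at ZT12 was lower than at ZT0 by a log2 fold change of -0.81 ± 0.09 (adjusted p = 6.96e-10; 26.8% of genes), and the groups did not overlap (11.5% of genes). From ZT12 to ZT18, across the first hours of the dark phase, it was higher by 0.63 ± 0.10 (adjusted p = 2.60e-06; 27.5%), again with no overlap (19.1% of genes). Against ZT6, ZT0 was higher (adjusted p = 3.76e-06; 24.1%) and so was ZT18 (adjusted p = 0.00193; 30.7%). ZT3 was lower than ZT0 (adjusted p = 0.0313; 4.57%), a call lost without any of 4 libraries (T0N2, T0N3, T3N2 or T3N4; adjusted p up to 0.255).

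Among the other genes, Ntrk2 also varied over the day. Its mean was 9.63 log2 CPM at ZT3, 9.61 at ZT0, 9.60 at ZT18, 9.58 at ZT6 and 9.44 at ZT12, a range of 0.19 (limma F test, adjusted p = 0.000521). The 4 higher times were not told apart (adjusted p of neighbours 0.687 to 0.896), and ZT12 was below ZT0 (adjusted p = 0.000169) and below ZT18 (adjusted p = 0.00136). It was also below ZT6 (adjusted p = 0.0312), a call lost without any of T6N3, T6N4, T12N1, T12N4 or T12N5 (adjusted p up to 0.166). The means of both Bdnf and Ntrk2 were lowest at ZT12. The Ntrk2 effect at T36 was not shown to differ from that at T30 (0.06 ± 0.06, adjusted p = 0.638). Ntf3 had means from -0.47 at ZT6 to -1.13 at ZT18 (adjusted p = 0.284), and Ntrk3 from 8.02 at ZT12 to 8.09 at ZT0 (adjusted p = 0.642), so that no daily variation was called in either.

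After T48, none of the 4 genes was called at any time. At T54, 24 h after the end of deprivation, Bdnf differed from ZT6 by 0.30 ± 0.12 (adjusted p = 0.402) and Ntf3 by -0.76 ± 0.32 (adjusted p = 0.430), and both ranges overlapped the controls. At T198, 7 days after the end, Bdnf was 4.85, 4.96 and 5.09, within the ZT6 range of 4.37 to 5.19 (difference 0.20 ± 0.12, adjusted p = 0.644). Ntrk2 was at -0.13 ± 0.05 there (adjusted p = 0.522). Each of the 7 comparisons from T54 to T198 called 0% of all genes by limma, with 902 to 1750 genes at an unadjusted p under 0.05. Left-out libraries changed that count: T54 called 806 genes without T54S4.

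Over the 17 group means, which share their libraries and controls, the genes most like Bdnf were Vgf (Pearson's r = 0.975), which encodes a neuropeptide precursor, then AW046200 (0.964) and Tspan31 (0.951), and the most opposed was Prune2 (-0.976). Vgf was itself 0.98 higher at T30 on the log2 scale. Ntf3 was most like Acadsb (0.889), Leprot (0.878) and Pced1b (0.870). Clmp (0.962) and Stt3b (0.921) were among the 3 genes most like Ntrk2, and Sbno1 (0.915), Nasp (0.913) and Katnal1 (0.910) most like Ntrk3. These are descriptions over genes with a mean of at least 0 log2 CPM.

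Of 97 other gene names of the neurotrophin pathway, 92 had a row. Ngfrap1, which had no row, is an older name of Bex3, which did. At T30, 33 of the 92 were higher and 12 lower by limma (48.9%, against 32.4% of all genes), with a median log2 fold change of 0.05 against -0.01 over all genes. At T27, 18 were higher and 6 lower (26.1%, against 16.4%), at T36 11 and 3 (15.2%, against 12.5%) and at T42 0 and 1. Without T6N3 the T30 counts were again 33 and 12. The shares were not matched for expression level: 20% of all genes, but few of the 92, had a mean under 0.66 log2 CPM. These lists were written by hand with earlier results of these data known.

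Among receptors and sorting proteins, Ngfr, the low-affinity receptor gene, was lower at T30 (-0.61 ± 0.21, adjusted p = 0.0233), at a mean level of only -0.41 log2 CPM. Sorcs3 and Sorl1, which encode sorting receptors of the sortilin family, were higher by 0.47 and 0.44 at T30, and Sorcs3 by 0.91 at T36. Of 11 measured genes for cutting or controlling the cutting of the precursors, 3 were higher and 3 lower at T30 (54.5%, against 32.4% of all genes). Those higher were Pcsk1 (0.82), a convertase of secretory granules, Furin (0.58), a convertase of the Golgi, and Plat (0.27). The Plat product turns plasminogen into plasmin, a protease that cuts proBDNF, and the plasminogen gene Plg had no row. The lower ones were Pcsk2 (-0.26), Mmp9 (-0.55) and Serpini1 (-0.20), the last an inhibitor of the Plat product.

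Downstream of the receptors, 12 of 25 adaptor genes were higher and 2 lower at T30 (56.0%, against 32.4% of all genes). Irs2, an insulin receptor substrate, was higher by 1.00 ± 0.13 (adjusted p = 2.56e-08) and Sh2b1, a Trk adaptor, by 0.28, while Frs2 was lower (-0.11). Of 24 genes of the MAPK and PI3K kinase core, 4 were higher, Rps6ka2 among them (0.47), and 4 lower, among them Mapk3 (-0.25), a share of 33.3% that is near the 32.4% of all genes. Of 12 genes for feedback inhibitors of this signalling, 9 were higher and 0 lower at T30 (75%, and 8 higher without T6N3), and 8 and 0 at T27 (66.7%, against 16.4% of all genes). Dusp4 (1.72), Dusp5 (1.54) and Dusp6 (1.28), phosphatases of MAP kinases, and Spry4 (1.28), a Sprouty inhibitor, had the largest differences. At T36, where 12.5% of all genes were called, 0 of the 12 were called by limma.

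**Figure D4:**
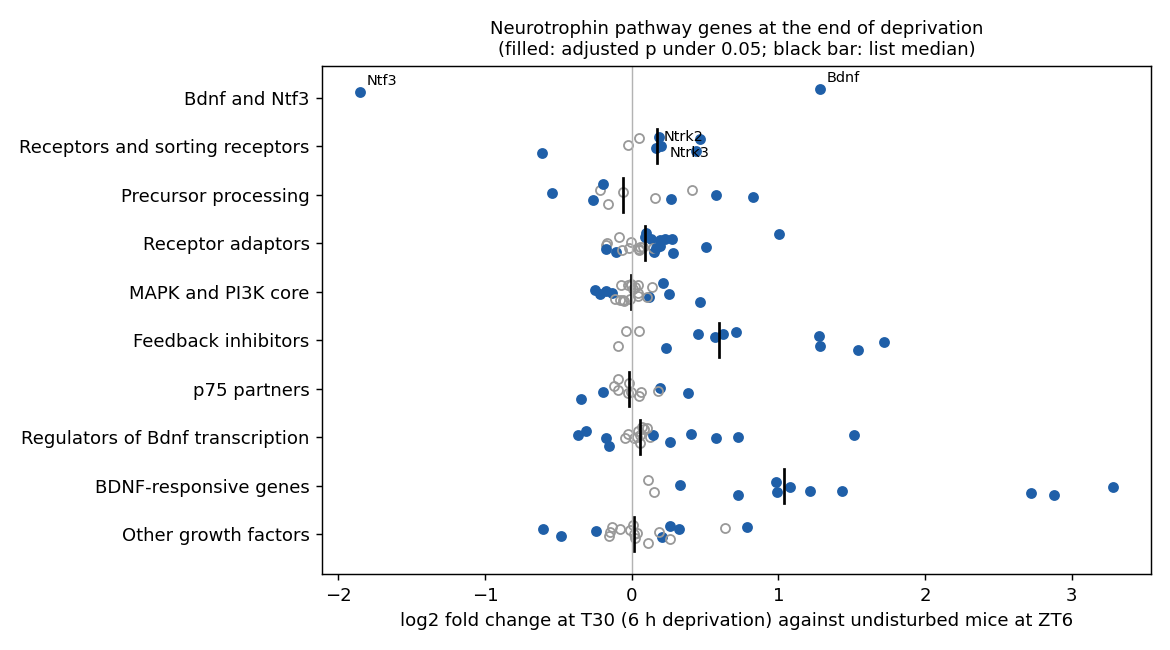
log2 fold change at T30 against ZT6 (x axis) for Bdnf and Ntf3 (top row) and each measured gene of 9 pathway lists (other rows); filled points have an adjusted p under 0.05 and black bars are list medians. Bdnf and Ntf3 lie on opposite sides of 0, and the feedback inhibitors and BDNF-responsive genes lie mainly to the right, with medians of 0.60 and 1.04.

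Of 21 regulators of Bdnf transcription, 6 were higher and 4 lower at T30 (47.6%, against 32.4% of all genes). Npas4, an activity-induced transcription factor, was higher by 1.52 ± 0.32 (adjusted p = 0.000169) and Crem, of the CREB family, by 0.73 ± 0.08 (adjusted p = 5.13e-10), whereas Mef2c (-0.31) and Rest (-0.37) were lower. Of 12 genes known to respond to BDNF, most of which also respond to neuronal activity, 10 were higher and 0 lower at T30 (83.3%, and 9 higher without T6N3), with Arc at 3.28, Fos at 2.73 and Nptx2 at 0.99. At T36, 7 of the 12 were higher and 0 lower (58.3%, against 12.5% of all genes), among them Nptx2 (1.44) and Crh (1.33), while Arc, Fos and Egr1 were not called. Of 20 genes for other growth factors, 4 were higher and 3 lower at T30, a share of 35% that is near that of all genes. Manf was higher by 0.78 ± 0.08 (adjusted p = 5.12e-10), and Vegfa by 0.32.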

How the data were processed

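Cortex values are deposited log2 CPM, made by the authors with fastp, STAR 2.7.0e and edgeR on mm10, per the submitters' processing notes. These libraries are labelled as a re-analysis of an earlier study, and their preparation, strand setting and depth are not given in the sources used here. Of 17185 rows, 77 without a gene name (at most 0.0797% of the signal) were left out. CPM summed to 979177 to 1020370 per library. The labels give 2 batches (40 and 22 libraries), but the batch term came out at 0 for each gene, so batch differences had been removed from the deposited values. T60, T66, T192 and T198 are all batch 2.

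One limma fit (3.58.1, R 4.3.3, mean trend) covered 17 groups plus batch, with 44 residual degrees of freedom. It was tested on simulated data. Exact permutation tests compared within-library differences. The liver files were not used. Some genes named by the rule below are not reported here. Alternatives were no batch term, centred libraries, log2(CPM + 1), no lowest 20% of genes, robust variances, the animal number as a block, libraries of the same batch, the 2 groups alone, a cosine fit of control times, and each library left out. Named genes were the 4 members, the 3 most like and the most opposed gene of each, and called genes of the pathway lists. Further list genes were chosen after their values were seen. The members and lists were chosen with earlier results of these data known.

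Exons of Bdnf share 1139 bases with the span of Gm45346, an antisense gene, exons of Ntrk2 235 with antisense 4930415C11Rik, and exons of Ntrk3 221 with Gm39038. Without a stated strand setting, their reads may not be told apart. Gm45346 had its own row (mean -1.25 log2 CPM) and was not called at T27, T30 or T36. Levels per kilobase divide CPM by the length of all GENCODE M21 exons of a gene.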

Additional observations from a re-analysis of the deposited data

Results flagged for a closer look

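In the ZT0 controls, the Ntf3 value of library J70N1 (-0.00259 log2 CPM) lay far above the other 7, which ran from -1.22 to -0.64. Its gap to the next value was 0.529 of the range of the group. Of 16 groups of 4 to 10 libraries checked (4 genes at 4 control times), this was 1, and chance gives about 1 in 20. ZT0 controls enter the Ntf3 comparisons at T48, T72 and T192, none of which was called.

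The effect of deprivation differed between successive times, by limma's contrast of differences, for Ntf3 from T30 to T36 (1.39) and for Bdnf from T36 to T42 (-0.852). The Ntf3 call was lost on log2(CPM + 1), with the replicate block and without any of 8 of the 16 libraries, and the Bdnf call held under each alternative run.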

How the results depend on the processing

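The Bdnf calls at T27, T30 and T36, the Ntf3 call at T30 and the Ntrk2 call at T36 held under each alternative run, and without each library in turn (Bdnf 1.05 to 1.19, 1.16 to 1.41 and 1.10 to 1.27; Ntf3 -2.07 to -1.59; Ntrk2 0.17 to 0.27). The filter on the lowest 20% of genes (mean under 0.66 log2 CPM) removed Ntf3, so it gave no value there. Of the checks on members, 535 of 548 under other settings and 764 of 817 with 1 library left out kept their direction and side of the threshold. Calls that changed were Ntrk2 at T30 (0.14 in the 2 groups alone; 0.13 to 0.21 with 1 library left out), Ntrk3 at T30 (0.16 within the batch; 0.16 to 0.22) and Ntrk3 at T36 (0.19 in the 2 groups alone; 0.11 to 0.20). The T36 against T30 change of Ntf3 was 0.37 on log2(CPM + 1) and 1.25 with the replicate block (1.12 to 1.66). Ntf3 at T30 against ZT18 was -0.28 on log2(CPM + 1) (-1.36 to -0.94), and Ntrk2 0.15 with the block (0.11 to 0.19). The causes were not tested.

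Signs changed only for differences that were not called. With the replicate block, Bdnf at T66 was -0.0534 and Ntf3 at T192 was -0.0300. Ntrk3 at T66 was -0.0107 within the batch and in the 2 groups alone. Ntrk2 minus Ntrk3 at T42 was -0.0112 with same-batch controls. With 1 library left out, ranges that crossed 0 were, at T42, Ntf3 (-0.333 to 0.0171) and Ntrk3 (-0.00669 to 0.0633). At T48 they were Bdnf (-0.121 to 0.000459), Ntf3 (-0.881 to 0.154), Ntrk2 (-0.00595 to 0.0392) and Ntrk3 (-0.0305 to 0.0776). Later they were Ntrk2 at T54 (-0.0529 to 0.0166) and T66 (-0.0242 to 0.0126), Ntrk3 at T66 (-0.00993 to 0.0375), Bdnf at T78 (-0.185 to 0.0600) and Ntf3 at T192 (-0.00153 to 0.321). In undisturbed mice they were Ntrk2 ZT3 against ZT0 (-0.0185 to 0.0504) and ZT18 against ZT0 (-0.0257 to 0.00259). Ntrk2 minus Ntrk3 gave -0.0253 to 0.0358 at T27, -0.0477 to 0.0127 at T30 and -0.0250 to 0.0378 at T42.

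Counts of all genes called moved by over 1.5 times at T42 (177; 105 with the block, 98 within the batch, 31 in the 2 groups alone) and T48 (255; 419 without the batch term, 142 within the batch, 50 in the 2 groups alone). Genes called over control times were 7162, and 4577 with batch 1 alone. With 1 library left out, the count fell to 52 at T42 (lowest of T18N2, T42S2 and T42S6) and to 113 at T48 (T0N2, T0N5, T48S1, T48S3 and T48S4). It rose from 0 to as many as 806 at T54 (T6N3, J76N1 and T54S4), 76 at T198 (J76N1, J76S2 and J76S3), 25 at T66 (T18N2 and T66S2), 3 at T72 (T0N8, T0N9 and T72S4) and 2 at T60 (T60S2). Without T36S1, 1078 genes were called at T36 in place of 2136. T60 called 44 in the 2 groups alone and T66 14 without the batch term. Ntrk2 at ZT12 against ZT6 lost its call with the block (adjusted p = 0.0602).

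Animal numbers did not pair the libraries: same-numbered deviations correlated at -0.212 to 0.151 over 37 pairs. With 3 libraries a group and no read counts, precision for Ntf3 is limited by its low level.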
